A study of Mus musculus with 6 samples.

Results

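The 10 genes described here mark endothelium, the cell layer that lines blood vessels, and include the receptors through which vessels sense VEGF and angiopoietins. They were taken by symbol from a deposited table of normalised read counts: Pecam1, Cdh5, Emcn, Kdr, Flt1, Tek, Tie1, Vwf, Plvap and Egfl7. All 10 had a row among the 48709 gene rows of the count table, and all 10 were among the 16011 genes that passed a filter on low counts. The RNA came from first molar tooth germs of C57BL/6 mice at postnatal day 7, when the enamel-forming ameloblasts are at work. There were 3 Gpr115-KO libraries, from Gpr115-/- mice, and 3 WT libraries, from wild-type littermates. Gpr115 is an adhesion G protein-coupled receptor whose current symbol is Adgrf4. The part of the gene that was removed, the sex of the animals and the number of animals behind a library are not given in the labels. P-values therefore measure the spread between these libraries, which may be technical in part. The question addressed here is whether vessel genes of the tooth germ differed between the genotypes.

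VEGF-A acts on endothelial cells mainly through Kdr (VEGFR2), the signalling receptor, while Flt1 (VEGFR1) binds the same ligand tightly and, in its soluble form, holds it back from Kdr. Angiopoietins act through Tek (Tie2), and Tie1 is a partner receptor that modulates Tek. In developing teeth, capillaries supply the dental pulp and come to lie against the enamel epithelium as enamel matures. In whole tooth germs, fewer endothelial cells and less RNA per endothelial cell cannot be told apart.

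None of the 10 genes passed the threshold of an adjusted p under 0.05 in edgeR's quasi-likelihood test with Benjamini-Hochberg adjustment over all genes tested. Of all genes, 0.150% passed it (0.0375% higher and 0.112% lower in Gpr115-KO), so a count of 0 among 10 is near the background. At an unadjusted p under 0.05 the count was also 0 of 10, against 12.3% of all genes, and the DESeq2 Wald test and limma-voom each called 0 of the 10. Fold changes were above 0 for 5 genes (Cdh5, Kdr, Tie1, Plvap and Egfl7) and below 0 for 5 (Pecam1, Flt1, Tek, Emcn and Vwf). Their median log2 fold change was −0.09, beside 0.01 over all genes tested. For none of the 10 did the genotypes' libraries separate without overlap, which they did for 17.5% of all genes. The summed level of the 10 genes was 96.9, 91.7 and 108 CPM (counts per 1e6 of the scaled library size) in Gpr115-KO replicates 1 to 3 and 109, 104 and 96.2 CPM in WT replicates 1 to 3. These sums overlap. A p that misses the threshold does not show equal levels, so the intervals matter here: the 95% interval of the log2 fold change lay within −1 to 1, a 2-fold difference either way, for 9 of the 10 genes, the exception being Vwf.

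**Figure D1:**
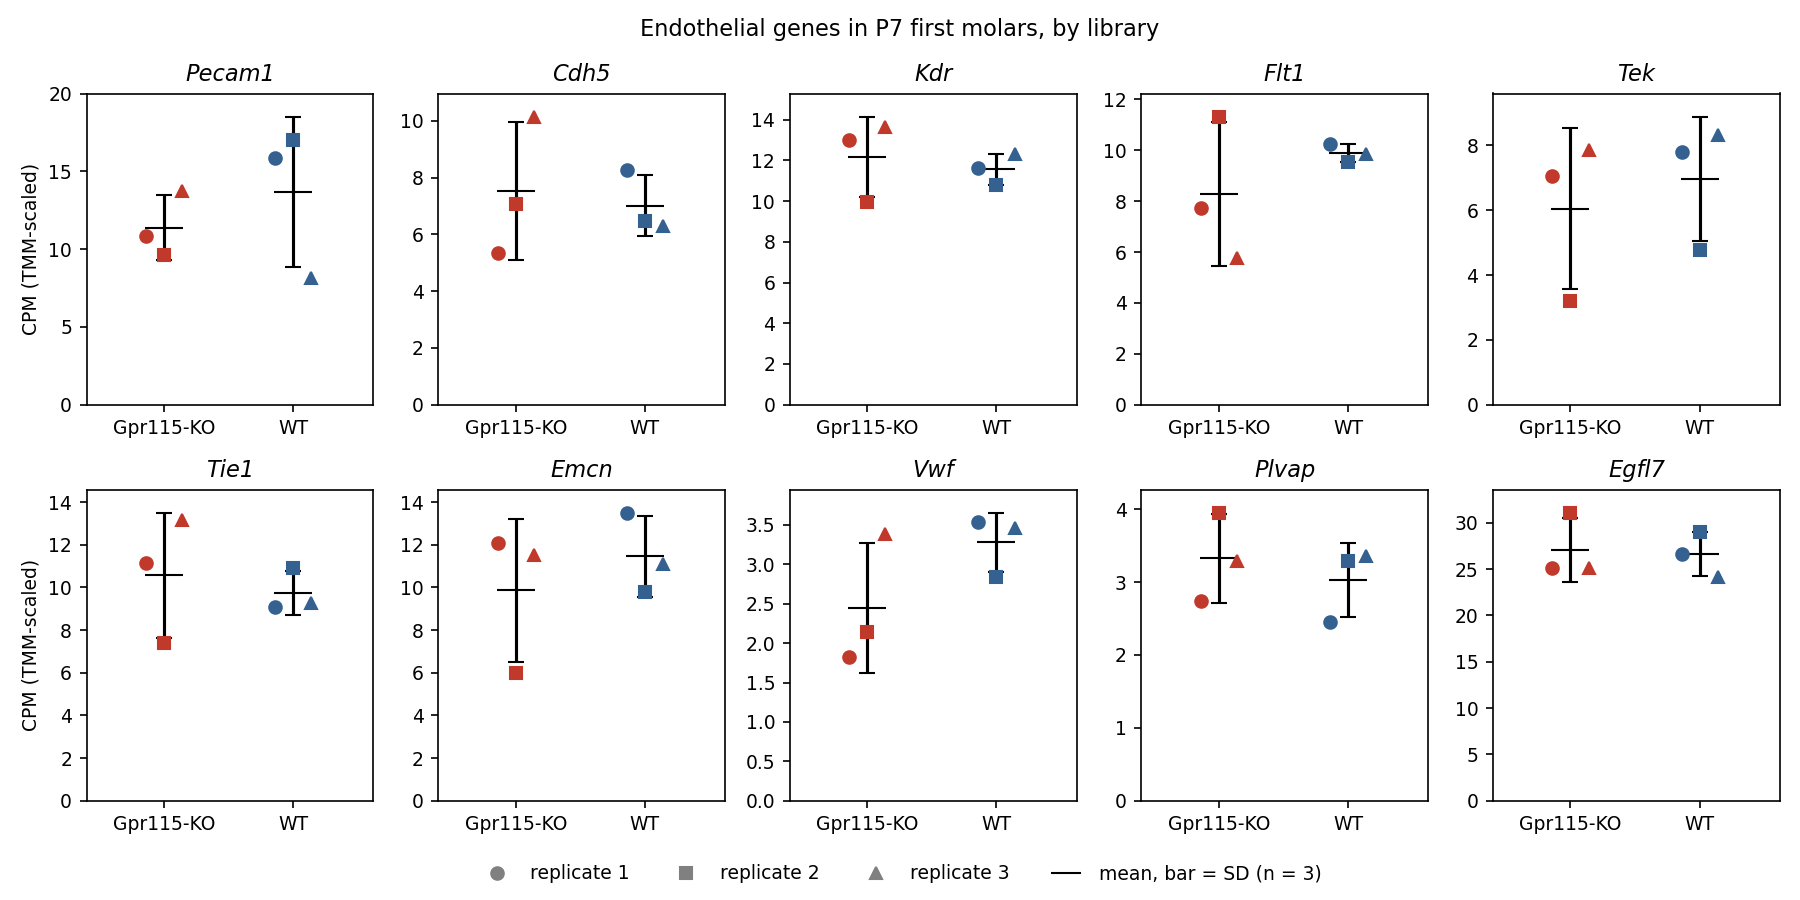
Normalised read count (CPM, linear axis from 0) of each of the 10 endothelial genes in every library, Gpr115-KO on the left and WT on the right; symbols mark the replicate number, horizontal lines the mean and vertical bars the SD (n = 3 each). The genotypes overlap in all 10 panels, and Gpr115-KO replicate 2 is the lowest library for Kdr, Tek, Tie1 and Emcn but the highest for Flt1, Plvap and Egfl7.

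Whole libraries held 8317302, 9710465 and 10328654 counts in Gpr115-KO and 11122821, 8833612 and 10642509 in WT, so 1 count was worth 0.0907 to 0.114 CPM. The endothelial genes had 16 to 294 counts per library. Tooth markers matched the labelled tissue: the 9 ameloblast genes summed to 96506 to 203725 CPM in Gpr115-KO and 113106 to 146183 CPM in WT, and the 10 odontoblast genes to 48562 to 81834 CPM in Gpr115-KO and 43720 to 94324 CPM in WT. Adgrf4, the targeted gene, had 39.2, 20.6 and 27.5 CPM in Gpr115-KO and 67.1, 62.5 and 67.5 CPM in WT. Its log2 fold change was −1.18 (edgeR adjusted p = 0.0887, SE 0.21), so the libraries separated in the direction of their labels but the difference was not called. It was called under 5 of 19 alternatives, among them without Gpr115-KO replicate 1, at −1.45 (edgeR adjusted p = 0.0143), and in the DESeq2 Wald test (DESeq2 adjusted p = 0.00049). Over the 19 the adjusted p ran from 7.4e-07 to 0.325.

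Levels between genes can be compared only per length of exon, and on that scale (CPM per kb, mean ± SD over all 6 libraries) Egfl7 stood highest at 7.50 ± 0.747. Tie1 (2.07 ± 0.411), Pecam1 (2.01 ± 0.573), Emcn (1.97 ± 0.480), Cdh5 (1.73 ± 0.406), Plvap (1.60 ± 0.265), Tek (1.38 ± 0.436) and Kdr (1.32 ± 0.152) followed, and each overlapped its neighbour in this order. Flt1 was lower at 0.673 ± 0.148 and Vwf lowest at 0.178 ± 0.0456. The steps that held in 6 of 6 libraries without overlap were Egfl7 above Tie1, Kdr above Flt1 and Flt1 above Vwf. Flt1 and Vwf also have the longest exonic lengths of the 10 genes, 13504 and 16064 nt, and a length that counts exons of all annotated transcripts lowers the value of a gene expressed mainly as a short form.

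Among the adhesion proteins, Pecam1 (CD31; ENSMUSG00000020717, chromosome 11, 106654217 to 106750628 on GRCm38), which joins endothelial cells at their borders and is also present on platelets and leukocytes, had 10.8, 9.62 and 13.7 CPM in Gpr115-KO and 15.9, 17.05 and 8.13 CPM in WT. WT held both its highest and its lowest library. Pecam1 averaged 11.4 ± 2.11 CPM in Gpr115-KO and 13.7 ± 4.84 CPM in WT (SD, n = 3 each), with a log2 fold change of −0.26 (SE 0.29, 95% interval −0.89 to 0.37, edgeR adjusted p = 0.753). It was the only gene of the 10 to vary more among WT than among Gpr115-KO libraries.

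Cdh5 (VE-cadherin; ENSMUSG00000031871, chromosome 8, 104101625 to 104144511), the cadherin of endothelial junctions, had 5.36, 7.05 and 10.2 CPM in Gpr115-KO and 8.25, 6.48 and 6.30 CPM in WT. Gpr115-KO replicates 1 and 3 were its lowest and highest libraries, and the WT libraries lay between them. The log2 fold change was 0.10 (SE 0.28, 95% interval −0.52 to 0.73, edgeR adjusted p = 0.909). Without Gpr115-KO replicate 3 it turned to −0.18. Emcn (endomucin; ENSMUSG00000054690, chromosome 3, 137341067 to 137432185), a mucin-like surface protein of capillaries and veins, had 12.1, 5.99 and 11.5 CPM in Gpr115-KO and 13.5, 9.77 and 11.1 CPM in WT. Gpr115-KO replicate 2 lay below the other five libraries, which were close together. The log2 fold change of Emcn was −0.22 (SE 0.28, 95% interval −0.84 to 0.40, edgeR adjusted p = 0.796), and without that library it turned to 0.04.

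The sequences around the start sites of the 4 receptor genes are shown because Flt1 and Kdr, and Tie1 and Tek, are the pairs whose ratios are compared below. Each spans 250 bases before to 50 bases after the RefSeq start (GRCm38.p6) and is written 5′ to 3′ on the gene's strand. Capitals mark AGGAAG or its reverse complement CTTCCT, a core motif bound by ETS factors, the family of Erg and Fli1.
Flt1, chr5:147725962-147726261, minus strand: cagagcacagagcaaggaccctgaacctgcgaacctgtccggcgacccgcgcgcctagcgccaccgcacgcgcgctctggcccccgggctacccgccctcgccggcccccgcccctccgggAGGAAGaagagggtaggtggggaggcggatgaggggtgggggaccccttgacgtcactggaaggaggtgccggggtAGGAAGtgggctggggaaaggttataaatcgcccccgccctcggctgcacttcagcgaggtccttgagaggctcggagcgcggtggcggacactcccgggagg
Kdr, chr5:75978406-75978705, minus strand: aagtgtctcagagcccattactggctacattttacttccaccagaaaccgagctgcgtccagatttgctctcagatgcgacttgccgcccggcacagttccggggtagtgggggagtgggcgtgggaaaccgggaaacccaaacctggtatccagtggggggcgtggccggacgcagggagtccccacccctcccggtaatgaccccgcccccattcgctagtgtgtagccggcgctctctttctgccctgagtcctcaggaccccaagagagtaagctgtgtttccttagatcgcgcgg
Tie1, chr4:118489800-118490099, minus strand: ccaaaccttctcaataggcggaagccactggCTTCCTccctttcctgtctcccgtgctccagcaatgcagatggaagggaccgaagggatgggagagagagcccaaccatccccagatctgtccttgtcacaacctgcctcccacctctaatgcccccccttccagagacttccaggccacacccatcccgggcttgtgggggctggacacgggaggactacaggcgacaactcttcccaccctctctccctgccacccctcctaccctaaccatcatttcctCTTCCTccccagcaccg
Tek, chr4:94739039-94739338, plus strand: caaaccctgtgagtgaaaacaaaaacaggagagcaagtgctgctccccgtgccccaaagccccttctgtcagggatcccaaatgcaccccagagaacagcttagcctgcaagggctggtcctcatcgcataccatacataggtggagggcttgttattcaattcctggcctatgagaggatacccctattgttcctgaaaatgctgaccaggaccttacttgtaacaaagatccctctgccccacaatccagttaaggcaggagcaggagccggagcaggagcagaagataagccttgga

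The Flt1 window held 2 matches, which begin at −129 and −53 relative to the start, and the Tie1 window held 2, at −219 and 34. The windows of Kdr and Tek held none, which says only that these letters are not in these 300 bases. RefSeq windows were found for 6 of the 10 genes, Egfl7 with 3 of them, giving 8 windows in all. AGGAAG on either strand was in 5 of these 8 (in Flt1, Tie1, Emcn and Egfl7), against 35.4% of 32851 windows of the same length. AGATAA, the motif of GATA factors, was in 1 of 8 (Tek) against 11.2%, and ACAAAG, a SOX motif, in 2 of 8 (Tek and Egfl7) against 18.7%. GTAAACA, a forkhead motif, was in 0 of 8 against 3.65%. Both strands were searched for each, and a match describes letters, not binding.

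Of the VEGF receptors, Kdr (ENSMUSG00000062960, chromosome 5, 75932827 to 75978458) had 13.0, 9.94 and 13.6 CPM in Gpr115-KO and 11.6, 10.8 and 12.3 CPM in WT. Its WT libraries lay within the Gpr115-KO range. Kdr averaged 12.2 ± 1.97 CPM in Gpr115-KO and 11.6 ± 0.751 CPM in WT (SD, n = 3 each), and its log2 fold change was 0.08 (SE 0.21, 95% interval −0.38 to 0.53, edgeR adjusted p = 0.911). Without Gpr115-KO replicate 3 it was −0.01.

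Flt1 (ENSMUSG00000029648, chromosome 5, 147561604 to 147726011) had 7.75, 11.3 and 5.76 CPM in Gpr115-KO and 10.2, 9.55 and 9.86 CPM in WT. The WT libraries were nearly level, and Gpr115-KO replicates 1 and 3 lay below them and replicate 2 above. The coefficient of variation of Flt1 was 34.1% in Gpr115-KO and 3.55% in WT, where counting error alone gives about 11.3% and 10.1%, so the WT libraries lay closer together than counting would make them on average. The log2 fold change was −0.26 (SE 0.27, 95% interval −0.85 to 0.33, edgeR adjusted p = 0.736). Without Gpr115-KO replicate 2 it was −0.55, and Flt1 was then the 1 gene of the 10 with an unadjusted p under 0.05, while its edgeR adjusted p was 0.560, the lowest over 19 alternatives (highest 0.964). Without Gpr115-KO replicate 3 it was −0.05.

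The ratio of Flt1 to Kdr, the decoy over the signalling receptor, was 0.596, 1.14 and 0.423 in Gpr115-KO replicates 1 to 3 and 0.883, 0.884 and 0.802 in WT replicates 1 to 3. The Gpr115-KO libraries lay on both sides of the WT libraries. The mean log2 ratio was −0.60 ± 0.73 in Gpr115-KO and −0.23 ± 0.08 in WT (SD, n = 3 each), a difference of −0.37 with p = 0.4 in a two-sided exact permutation test. With 3 libraries a group there are 20 arrangements and the smallest p possible is 0.1. The difference was −0.77 without Gpr115-KO replicate 2 and −0.05 without Gpr115-KO replicate 3. Flt1 has a soluble form that shares its first exons with the full receptor, and counts per gene do not separate the forms.

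**Figure D2:**
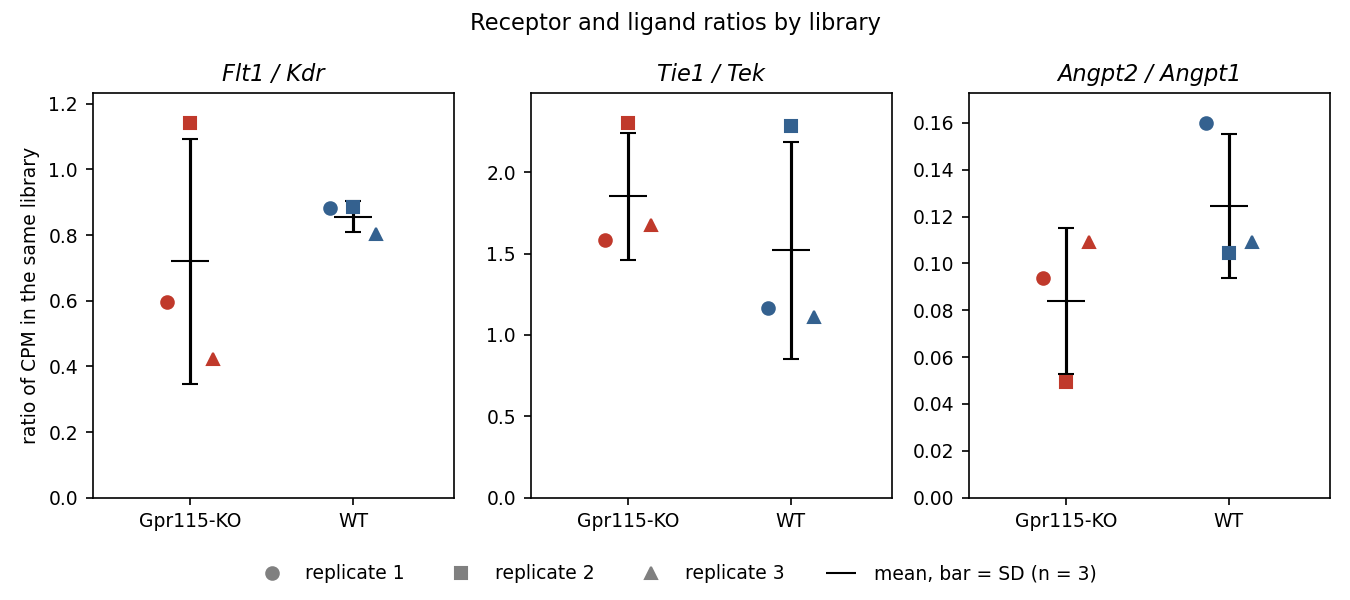
Ratio of CPM within the same library (linear axis from 0) for Flt1 over Kdr, Tie1 over Tek and Angpt2 over Angpt1, Gpr115-KO on the left and WT on the right; symbols mark the replicate number, lines the mean and bars the SD (n = 3 each). The Flt1 over Kdr ratios run from 0.423 to 1.14 in Gpr115-KO and from 0.802 to 0.884 in WT, and the genotypes overlap in the other 2 panels as well.

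Of the angiopoietin receptors, Tek (ENSMUSG00000006386, chromosome 4, 94739289 to 94874976) had 7.06, 3.21 and 7.87 CPM in Gpr115-KO and 7.80, 4.77 and 8.33 CPM in WT. Replicate 2 was the lowest library in both genotypes. Its log2 fold change was −0.21 (SE 0.35, 95% interval −0.99 to 0.58, edgeR adjusted p = 0.854), and 0.10 without Gpr115-KO replicate 2. Tie1 (ENSMUSG00000033191, chromosome 4, 118471191 to 118490061) had 11.2, 7.37 and 13.2 CPM in Gpr115-KO and 9.07, 10.9 and 9.25 CPM in WT. The WT libraries lay between the Gpr115-KO extremes. Its log2 fold change was 0.12 (SE 0.25, 95% interval −0.43 to 0.68, edgeR adjusted p = 0.877), and −0.07 without Gpr115-KO replicate 3.

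The ratio of Tie1 to Tek was 1.58, 2.30 and 1.67 in Gpr115-KO and 1.16, 2.29 and 1.11 in WT. Both replicates numbered 2 were high, and the other Gpr115-KO libraries lay above the other WT libraries. The difference of mean log2 ratios was 0.35 (two-sided exact permutation p = 0.4). Adjusted over the 3 ratios compared, each p was 0.4.

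Vwf (von Willebrand factor; ENSMUSG00000001930, chromosome 6, 125546774 to 125686679), a clotting glycoprotein that endothelium and megakaryocytes make, had 1.82, 2.14 and 3.38 CPM in Gpr115-KO and 3.54, 2.84 and 3.46 CPM in WT. Gpr115-KO replicates 1 and 2 lay below every WT library and replicate 3 within them. These values rest on 16, 20 and 37 counts in Gpr115-KO and 39, 25 and 34 in WT. Its log2 fold change was −0.41 (SE 0.36, 95% interval −1.20 to 0.37, edgeR adjusted p = 0.677), the farthest from 0 of the 10. The value was −0.72 without Gpr115-KO replicate 3, −0.24 without Gpr115-KO replicate 1, and −0.17 with the trend of each library on exonic length removed.

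Plvap (ENSMUSG00000034845, chromosome 8, 71497765 to 71511752), which builds the diaphragms of fenestrated capillaries, had 2.73, 3.95 and 3.29 CPM in Gpr115-KO and 2.45, 3.30 and 3.35 CPM in WT. The genotypes overlapped, though Gpr115-KO replicate 2 lay above every WT library and WT replicate 1 below every Gpr115-KO library. The log2 fold change was 0.14 (SE 0.32, 95% interval −0.58 to 0.85, edgeR adjusted p = 0.895). The spread of Plvap, 18.4% in Gpr115-KO and 16.7% in WT as coefficients of variation, was about what counting error gives at this depth, 17.6% and 18.4%.

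Egfl7 (ENSMUSG00000026921, chromosome 2, 26580014 to 26593120), which encodes a protein that endothelial cells secrete into their matrix, had 25.1, 31.1 and 25.2 CPM in Gpr115-KO and 26.7, 29.0 and 24.2 CPM in WT. It had the narrowest interval of the 10 genes, with a log2 fold change of 0.03 (SE 0.17, 95% interval −0.34 to 0.39, edgeR adjusted p = 0.962). The hairpin of miR-126, an endothelial miRNA, lies within Egfl7 on the same strand, and the miRNA is shown because it is known to be transcribed with the gene. Its mature 3p strand (RefSeq, GRCm38.p6, chr2:26591402-26591423, plus strand) is given with its seed, bases 2 to 8, in capitals.
mmu-miR-126a-3p: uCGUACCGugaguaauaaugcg

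The row of the miRNA gene itself, Mir126a, had 0 counts in all 6 libraries, and the mature miRNA is not measured in this table. Exons of Egfl7 overlap those of Agpat2 on the opposite strand by 64 nt and those of Gm20532 on the same strand by 264 nt. Strand is not recorded by the library kit, and such reads cannot be assigned to 1 gene with certainty. Short stretches of Pecam1 and Vwf transcripts, at most 186 nt, match other genes at 95% identity or more, so a few of their reads may be shared.

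**Figure D3:**
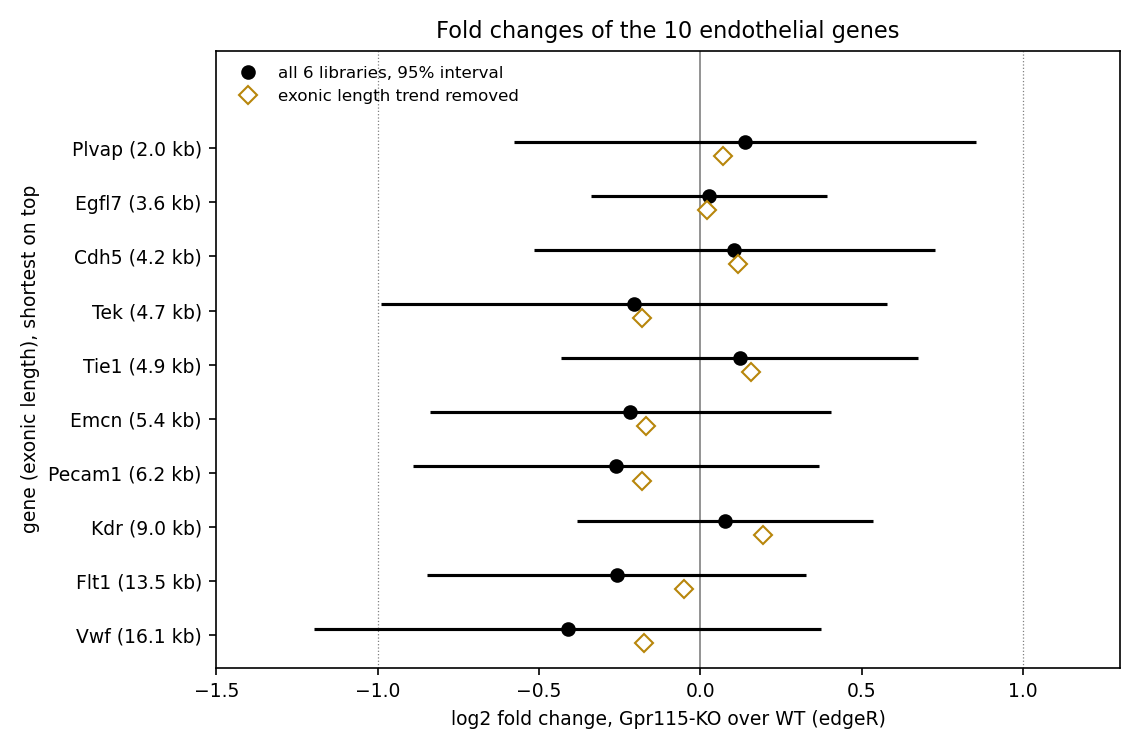
Log2 fold change of Gpr115-KO over WT (edgeR) for the 10 endothelial genes, ordered by exonic length with the shortest on top; filled points with lines are estimates with 95% intervals, open diamonds the estimates after each library's trend on exonic length was removed, and dotted lines mark a 2-fold difference. All 10 intervals include 0, and the 2 longest genes, Flt1 and Vwf, lie nearer 0 after the length trend is removed (−0.05 and −0.17).

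The spread among libraries was larger in Gpr115-KO than in WT for 9 of the 10 genes, which was the case for 62.5% of all genes tested. Coefficients of variation ran from 12.8% (Egfl7) to 41.2% (Tek) in Gpr115-KO and from 3.55% (Flt1) to 35.4% (Pecam1) in WT. Gpr115-KO replicate 2 was the lowest of the 6 libraries for 4 of the 10 genes and the highest for 3, against 24.9% and 26.3% of all genes. In the same library the 11 skeletal muscle genes summed to 273 CPM, against 26.5 to 68.4 CPM in the other Gpr115-KO libraries and 41.2 to 65.0 CPM in WT, and its part in the vessel values was not tested. Without this library the median log2 fold change of the 10 genes was 0.02.

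Removing each library's trend on exonic length raised the fold changes of the longest of the 10 genes, Vwf by 0.24, Flt1 by 0.21 and Kdr by 0.12 on the log2 scale, and moved the others by less than these. The median of the 10 genes was then −0.01, with 5 still above 0 and 0 called. None of the 10 genes lies on chromosome 17, which carries Adgrf4.

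Markers of blood cells were examined because Pecam1 and Vwf are not confined to endothelium. Of 10 platelet genes only 3 passed the filter, with a median log2 fold change of 0.40, and Gp9, Gp6 and Treml1 were at 0 counts in all 6 libraries. The platelet genes summed to 31.9 to 42.3 CPM in Gpr115-KO and 30.1 to 32.1 CPM in WT. Of the tested ones, Itga2b and Itgb3 averaged only 1.80 and 2.21 CPM over all 6 libraries. Most of the sums therefore came from the rest of the list, and they are a poor measure of platelets. The 6 of 8 red cell genes tested all had fold changes above 0, with a median of 1.34, or 0.95 without Gpr115-KO replicate 2. Red cell genes summed to 159 to 396 CPM in Gpr115-KO and 139 to 159 CPM in WT. Gpr115-KO replicate 2 was the highest library for 5 of the 6. All 6 had an unadjusted p under 0.05, against 12.3% of all genes, though 0 were called. The leukocyte genes summed to 135 to 184 CPM in Gpr115-KO and 120 to 135 CPM in WT, with a median of 0.48 over 13 tested. Of these, 7 had an unadjusted p under 0.05, against 12.3% of all genes, and 0 were called. The part of these cells in the levels of Pecam1 and Vwf was not tested.

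Other vessel genes gave the same count. In 10 lists chosen by known function, holding 128 genes, 106 passed the filter and 0 were called. At an unadjusted p under 0.05 there were 6 (5.66%, against 12.3% of all genes), and they are named here because they are few: Notch4 and Ctla2a were above 0, and Hhex, Rgs5, Notch1 and Myct1 below. The fold change was above 0 for 50 of the 106, and the median was −0.01.

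The 8 tested ligands had a median of −0.17 on the log2 scale, which was 0.04 without Gpr115-KO replicate 2, and 0 were called. Among them Vegfa, the main VEGF, had 5.47, 4.60 and 7.13 CPM in Gpr115-KO and 5.80, 5.46 and 7.83 CPM in WT. These values overlap, and the fold change was −0.15 on the log2 scale (edgeR adjusted p = 0.867, SE 0.28), or 0.03 without WT replicate 3. Vegfa lies on chromosome 17, 3.32 Mb from Adgrf4. Pgf, a VEGF relative that binds Flt1, had −0.30 (edgeR adjusted p = 0.788, SE 0.38), and Vegfb, which also binds Flt1, 0.37 (edgeR adjusted p = 0.690, SE 0.33).

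Angpt1, the Tek agonist made by perivascular and mesenchymal cells, had 21.9, 21.7 and 23.5 CPM in Gpr115-KO and 15.3, 20.7 and 17.7 CPM in WT. Each Gpr115-KO library was above every WT library, as in 17.5% of all genes in one direction or the other, and the log2 fold change was 0.32 (SE 0.18, 95% interval −0.07 to 0.71, edgeR adjusted p = 0.485). Angpt2, the context-dependent antagonist that endothelial cells release, had 2.05, 1.07 and 2.56 CPM in Gpr115-KO and 2.45, 2.16 and 1.93 CPM in WT. On the log2 scale its fold change was −0.20 (edgeR adjusted p = 0.883, SE 0.42). The ratio of Angpt2 to Angpt1 was 0.0938, 0.0493 and 0.109 in Gpr115-KO and 0.160, 0.104 and 0.109 in WT, a difference of −0.62 on the log2 scale (two-sided exact permutation p = 0.2).

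Of 15 other receptors and co-receptors, 3 were above 0 and 12 below, with a median log2 fold change of −0.19 and 0 called. With the length trend removed the median was −0.10 and 6 were above 0. Nrp2, a co-receptor for VEGF and semaphorins, had 11.9, 11.01 and 6.04 CPM in Gpr115-KO and 12.5, 15.2 and 14.2 CPM in WT. Its libraries did not overlap, as in 17.5% of all genes, and its log2 fold change was −0.54 (edgeR adjusted p = 0.435, SE 0.26). Aplnr, the apelin receptor of sprouting vessels, had −0.43 (edgeR adjusted p = 0.423, SE 0.21). Nrp1, the co-receptor of Kdr, had 52.3, 35.6 and 45.2 CPM in Gpr115-KO and 48.8, 46.5 and 45.9 CPM in WT. Its log2 fold change, −0.09 (SE 0.17), had an edgeR adjusted p of 0.871.

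The median over 19 tested pan-endothelial markers beside the 10 genes was 0.02 (log2 fold change), with 11 above 0 and 0 called. Ctla2a had 8.43, 11.1 and 9.51 CPM in Gpr115-KO and 7.98, 6.36 and 3.96 CPM in WT, and the difference (log2 fold change 0.66, SE 0.28) had an edgeR adjusted p of 0.372. Myct1 lay the other way, with 5.36, 3.42 and 4.94 CPM in Gpr115-KO and 7.35, 5.91 and 7.62 CPM in WT (log2 fold change −0.61, edgeR adjusted p = 0.401, SE 0.27). The libraries of both genes separated without overlap, in opposite directions. In this list 4 of the 19 tested genes did so (21.1%), against 17.5% of all genes. Gpihbp1 and Aqp1 were also among them, both higher in Gpr115-KO, and were named after their values were seen.

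**Figure D4:**
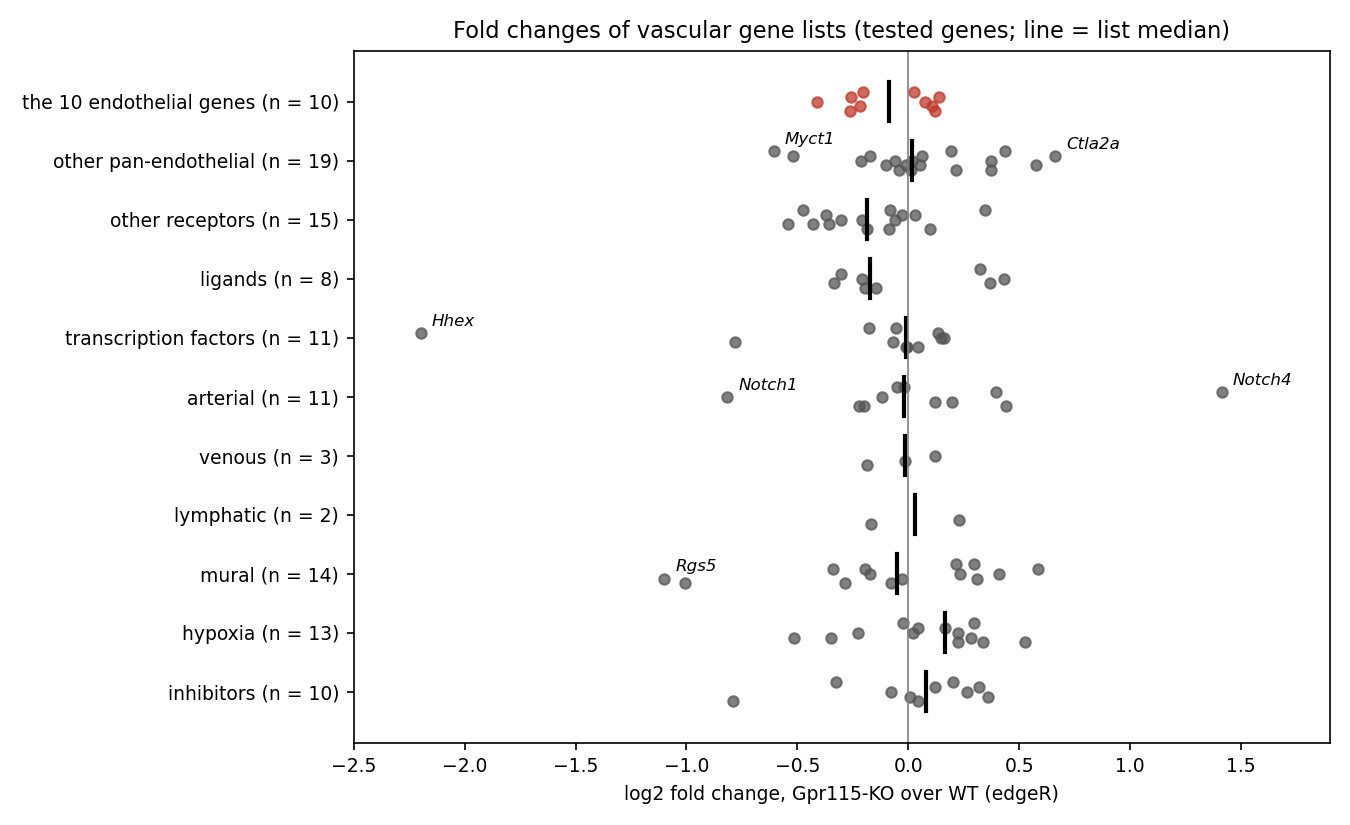
Log2 fold change of Gpr115-KO over WT (edgeR) for the tested genes of the 10 endothelial genes (red) and of 10 lists of vessel genes (grey), 1 point per gene, with a black line at each list's median. List medians lie between −0.19 (other receptors) and 0.17 (hypoxia, 0.06 without Gpr115-KO replicate 2), and the 6 genes with an unadjusted p under 0.05 are named.

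Of 18 transcription factors of endothelial identity, 11 were tested and 0 called. Fli1, an ETS factor, had 22.0, 29.6 and 35.7 CPM in Gpr115-KO and 28.2, 28.8 and 31.1 CPM in WT (log2 fold change −0.01, edgeR adjusted p = 0.988), and Erg, another ETS factor, stayed under the filter with 0.748 to 0.915 CPM in Gpr115-KO and 0.796 to 1.32 CPM in WT; these 2 were named for the motif above after their values were seen. Hhex, a homeobox factor of early endothelium and also of other tissues, had 3.53, 0.641 and 0.823 CPM in Gpr115-KO and 10.6, 5.68 and 6.20 CPM in WT. Its counts were 31, 6 and 9 in Gpr115-KO and 117, 50 and 61 in WT, and the gene lies on chromosome 19. The libraries of Hhex did not overlap, as in 17.5% of all genes. Its log2 fold change of −2.20 (edgeR adjusted p = 0.225, SE 0.57) was the farthest from 0 of the 106 genes. Hhex was called under 5 of 18 alternatives, among them without Gpr115-KO replicate 1, at −3.33 (edgeR adjusted p = 0.0200), and in the DESeq2 Wald test, at −2.19 (DESeq2 adjusted p = 0.00938). Over the 18 its adjusted p ran from 0.00027 to 0.719. Gata2, a blood and endothelial factor, had 0.798, 0.534 and 2.01 CPM in Gpr115-KO and 0.907, 2.27 and 2.74 CPM in WT. The genotypes overlap, and the log2 fold change of −0.78 (edgeR adjusted p = 0.626, SE 0.59) ran from −1.54 without Gpr115-KO replicate 3 to −0.45 without Gpr115-KO replicate 2.

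Arterial, venous and lymphatic genes had medians of −0.02 (11 tested), −0.01 (3 tested) and 0.03 (2 tested), with 0 called. Notch4, a Notch receptor of arterial endothelium, had 1.94, 1.82 and 1.74 CPM in Gpr115-KO and 0.725, 1.02 and 0.305 CPM in WT. These values rest on 17, 17 and 19 counts in Gpr115-KO and only 8, 9 and 3 in WT. The libraries of Notch4 did not overlap, as in 17.5% of all genes, and its log2 fold change was 1.41 (edgeR adjusted p = 0.308, SE 0.51). The gene lies on chromosome 17, 8.07 Mb from Adgrf4. Notch1, which many cell types of the tooth also express, had 19.4, 15.5 and 15.5 CPM in Gpr115-KO and 41.9, 29.8 and 16.97 CPM in WT (log2 fold change −0.82, edgeR adjusted p = 0.304, SE 0.29), and its adjusted p over 19 alternatives ran from 0.0157, with no count filter, to 0.837. Nr2f2, a factor of veins and of mesenchyme, had −0.19 (edgeR adjusted p = 0.757, SE 0.21) and Vcam1, a leukocyte adhesion receptor, 0.12 (edgeR adjusted p = 0.924, SE 0.38). Pdpn and Lyve1, both found on lymphatic endothelium and on other cells, had 0.23 (edgeR adjusted p = 0.594, SE 0.16) and −0.17 (edgeR adjusted p = 0.868, SE 0.32), while Prox1, the defining factor of lymphatic endothelium, had at most 0.342 CPM in Gpr115-KO and 0.0907 CPM in WT and was named after its values were seen.

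Mural cells, the pericytes and smooth muscle around vessels, were represented by 14 tested genes, whose median was −0.05 (log2 fold change) with 0 called. Rgs5, a pericyte marker, had 2761, 2028 and 2796 CPM in Gpr115-KO and 8076, 2789 and 5406 CPM in WT. The genotypes met at the lowest WT library, replicate 2, and the log2 fold change was −1.10 (edgeR adjusted p = 0.268, SE 0.34), called in the DESeq2 Wald test (DESeq2 adjusted p = 0.0342), with a range of 0.00367 to 0.798 over 19 alternatives. Pdgfrb and Cspg4, which define pericytes too, stood at 7.37 to 19.1 CPM and 4.49 to 7.98 CPM in Gpr115-KO, against 13.6 to 19.3 CPM and 6.10 to 8.25 CPM in WT. Both overlapped between the genotypes, and both were named after their values were seen. Their CPM were far below those of Rgs5, and which cells the Rgs5 RNA came from was not tested. Myh11, a myosin of smooth muscle, had 2.96, 1.18 and 2.47 CPM in Gpr115-KO and 6.35, 1.36 and 5.49 CPM in WT (log2 fold change −1.01, edgeR adjusted p = 0.480, SE 0.54).

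Genes of the hypoxia response, which drives Vegfa in many tissues, were tested for 13 members, with a median of 0.17 (log2 fold change), 9 above 0 and 0 called. That median was 0.06 without Gpr115-KO replicate 2, 0.08 without WT replicate 1 and 0.24 without Gpr115-KO replicate 3. Ndrg1, induced by low oxygen, had 39.3, 61.6 and 26.6 CPM in Gpr115-KO and 26.5, 29.2 and 32.7 CPM in WT (log2 fold change 0.53, edgeR adjusted p = 0.455, SE 0.27). Epas1 (HIF-2α) lies on chromosome 17, 44.1 Mb from Adgrf4. It had 93.8, 89.5 and 186 CPM in Gpr115-KO and 187, 157 and 185 CPM in WT. Its log2 fold change was −0.52 (edgeR adjusted p = 0.464, SE 0.27). In the list of secreted inhibitors of vessel growth, 7 of 10 tested were above 0 and 0 were called. Sema3a, a repellent that acts through Nrp1, had −0.79 (edgeR adjusted p = 0.647, SE 0.60) and Vash2, a vasohibin, −0.33 (edgeR adjusted p = 0.651, SE 0.26). The place of Vash2 in this list is uncertain, because its relative Vash1 is the vasohibin known as an inhibitor.

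The 10 endothelial genes differed among themselves in how they varied over the libraries. Their mean profile, each gene taken as log2(CPM + 1) minus its own mean over the 6 libraries, stood at −0.07, −0.19 and 0.12 in Gpr115-KO and 0.12, 0.02 and 0.00 in WT. Single genes differed from it by a root mean square of 0.12 (Kdr) to 0.35 (Flt1). Of 11619 other protein-coding genes, those nearest to it were Pomt1 (0.017), 0610009O20Rik (0.028), Xpnpep1 (0.033), Far2 (0.035) and Pdia6 (0.036), each with 6 libraries as the only points. These distances are smaller than those of any of the 10 endothelial genes. That comparison was nearly fixed in advance, because the 5 were picked as the nearest of 11619. Counting error also adds to the distances of the 10 endothelial genes, which had 16 to 294 counts per library. With 6 points all these distances are a description only.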

How the data were processed

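Total RNA from first molars at postnatal day 7 was extracted with TRIzol and, per the labels' protocols, made into Nextera XT libraries, a kit without strand information, read as pairs of 150 nt. GRCm38 (mm10) is the build and STAR 2.5.2a, edgeR, limma and DESeq2 are the tools in the submitters' processing notes. How reads were assigned to genes, and with which annotation, are points not given in the sources used here. Raw counts per gene were deposited, beside a signal that the authors scaled by TMM to CPM. Its values, divided by a factor per column, came out as whole reads in 100% of cases (within 0.01 reads) and matched the raw counts in all of them. Gene rows numbered 48709, and 15 transgene rows, with at most 8 counts in a library, were left out.

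The count test was edgeR 4.0.16 under R 4.3.3, with filterByExpr (minimum count 10, minimum total 15), TMM, a robust quasi-likelihood fit with genotype as the only term, a two-sided test and Benjamini-Hochberg adjustment. An adjusted p under 0.05 was called. CPM are counts per 1e6 of the TMM-scaled library size, with no pseudocount. Intervals are at 95%. The biological coefficient of variation was 23.1%. Coordinates and exonic lengths are from GENCODE vM21, in which 38 tested genes had no entry. Copies were sought by blastn 2.17.0 at 95% identity over at least 150 nt. On simulated data for this comparison (15588 genes) 48.5% of genes with a log2 change of 1 and 90.9% with a log2 change of 2 were called, and 10 of 148 calls were false. The simulation used the fitted trend of dispersion on mean level, without further differences between genes or shifts of single libraries. Its rates cover genes of all levels and are not specific to the 10 endothelial genes.

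The genes, lists and rules were chosen with earlier results of these data known. Genes were named by a rule: the 10 endothelial genes; Vegfa, Angpt1, Angpt2, Pgf, Nrp1 and Adgrf4; from every other list the called genes or else the 2 of smallest p; and the 5 genes nearest the mean profile. It named 54 genes, and values are given for the 35 from the vessel lists and the fixed names, beside those 5 by their distance. Mean levels alone are given for Itga2b and Itgb3 of the platelet list. Genes given outside the rule are named as such, except Gp9, Gp6, Treml1 and Mir126a, of which only the absence of counts is given. All pairs of libraries differed beyond sampling noise (chi-square per degree of freedom 16.0 to 67.1 within a group). Alternatives were DESeq2 size factors, library totals, no count filter (at least 1 count), a minimum of 10 counts in each library, limma-voom (limma 3.58.1), the Wald test of DESeq2 1.42.0, no robust shrinkage, the exonic length trend removed, edgeR on the recovered reads (which called 24 genes), limma-trend on the deposited values (log2, pseudocount 1 or 0.5), the replicate number as a block, and each library left out in turn.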

Additional observations from a re-analysis of the deposited data

How the results depend on the processing

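Of the 19 alternatives, edgeR on the recovered reads used the same counts as the main fit and could change nothing. None of the 10 endothelial genes was called under any of the 19, where their edgeR, DESeq2 or limma adjusted p-values ran from 0.391 to 0.9997. Of their 190 fold changes under alternatives, 8 changed sign, all 8 on leaving out 1 library; those ranges, in log2, were −0.18 to 0.30 for Cdh5, −0.014 to 0.20 for Kdr, −0.45 to 0.10 for Tek, −0.072 to 0.33 for Tie1, −0.38 to 0.041 for Emcn, −0.00043 to 0.26 for Plvap and −0.082 to 0.090 for Egfl7. Likewise they were −0.34 to 0.029 for Vegfa, −0.49 to 0.085 for Angpt2, −0.22 to 0.050 for Nrp1, −0.32 to 0.013 for Nr2f2, −0.019 to 0.28 for Vcam1 and −0.53 to 0.056 for Lyve1. Nrp1 also turned to 0.0012 with library totals alone, 0.047 with the length trend removed and 0.038 with the replicate block and the length trend removed. Leaving out 1 library also moved the list medians: −0.22 to 0.04 for ligands, −0.25 to −0.12 for other receptors, −0.19 to 0.10 for mural genes, 0.056 to 0.24 for hypoxia and 0.08 to 0.54 for platelets. The ratio differences ranged from −0.77 to −0.05 (Flt1 over Kdr), 0.16 to 0.68 (Tie1 over Tek) and −0.85 to −0.27 (Angpt2 over Angpt1).

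Over all genes, 6 higher and 18 lower calls became 135 and 365 with no count filter and 64 and 179 in the DESeq2 Wald test, and 11 lower with library totals alone; on leaving out 1 library they ran from 5 to 10 and from 7 to 39. Same-numbered libraries did not deviate together in every pair (correlations 0.26, 0.04 and −0.08, against −0.19 to 0.16 for libraries of different number). These few values cannot settle whether the numbers pair the samples. With the replicate block the counts were 18 and 54, and 15 and 50 with the length trend removed too, and 0 of the 10 endothelial genes were called. The block changed the call of Hhex (−2.40, edgeR adjusted p = 0.0297) and of Adgrf4 (−1.22, edgeR adjusted p = 0.0254), as did the block with the length trend removed (−2.35 and −1.24, edgeR adjusted p = 0.0353 and 0.0247), and it changed no call of the other vessel genes given with values. The cause of these shifts was not tested. For Vwf, with 16 to 39 counts a library, counting error alone gives a coefficient of variation of 20.3% in Gpr115-KO, where 33.7% was observed.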
